A study of Mus musculus with 2 samples.

Results

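Messenger RNA for the proteoglycans, link proteins and tenascins of perineuronal nets was described in the adult mouse cerebellum. The 10 genes are the lecticans Acan, Bcan, Ncan and Vcan, the link protein genes Hapln1, Hapln2, Hapln3 and Hapln4, and the tenascin genes Tnr and Tnc. They were taken as a named family and matched by Ensembl identifier, and all 10 were found among 43346 quantified genes. The material was whole cerebellum of C57BL/6J mice, the standard inbred laboratory strain, aged 8 weeks. Polyadenylated RNA longer than 200 nucleotides was sequenced with strand-specific paired-end reads in 2 libraries, called replicates 1 and 2. Both libraries belong to 1 untreated group, so no condition was compared and no test between groups was possible. Values are in TPM, a length-corrected abundance relative to all quantified entries, and mean ± SD is over the 2 libraries (n = 2).

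Perineuronal nets are lattices of extracellular matrix around the bodies and dendrites of certain neurons. Lecticans bind hyaluronan at one end, and link proteins hold that bond in place. At the other end they bind tenascin-R, which cross-links them, and their middle carries chondroitin sulfate chains. In the cerebellum such nets are best known around neurons of the deep nuclei and Golgi neurons. Related matrix surrounds nodes of Ranvier and synapses, and glia make part of it. In whole tissue, fewer cells of a type and less RNA per cell cannot be told apart.

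Replicate 1 held 83109117 estimated fragments and replicate 2 held 84279927. Both libraries are labelled as pooled male and female tissue, and they share 1 donor record. Their counts went against that label. Xist, expressed from the inactive X chromosome, had 45928 counts in replicate 1 and 26 in replicate 2, and the Y-linked gene Ddx3y had 0 counts in replicate 1 and 3662 in replicate 2. By these counts the RNA of replicate 1 was female and that of replicate 2 male, so the libraries did not come from the same animals or from 1 mixed pool. The number of animals behind each is not given in the labels. Cerebellar identity was plain in the markers: all 8 granule neuron markers and all 6 Purkinje neuron markers reached 10 TPM in both libraries.

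Levels covered almost 3 orders of magnitude on the TPM scale, from Bcan at 244 ± 13.6 TPM to Hapln3 at 0.52 ± 0.035 TPM. Of the 10 genes, 9 reached 1 TPM in both libraries and 4 reached 10 TPM, where 60.9% and 40.0% of 21474 protein-coding genes did so. The median level of the 10 genes was 7.22 TPM, and that of all protein-coding genes was 4.77 TPM. Ordered by mean level, the sequence was Bcan, Hapln4, Hapln2, Tnr, Ncan, Vcan, Tnc, Hapln1, Acan and Hapln3. The libraries' values overlapped for the neighbours Vcan and Tnc and for no other pair of neighbours. The mm9 RPKM values, a length-corrected abundance from a separate quantification with numbered replicates, turned the order of 2 of these pairs. There Ncan had 1.12 and 1.31 RPKM and Tnr 1.23 and 1.08 RPKM, which overlapped, and Tnc had 0.71 and 0.74 RPKM and Vcan 0.41 and 0.42 RPKM.

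**Figure D1:**
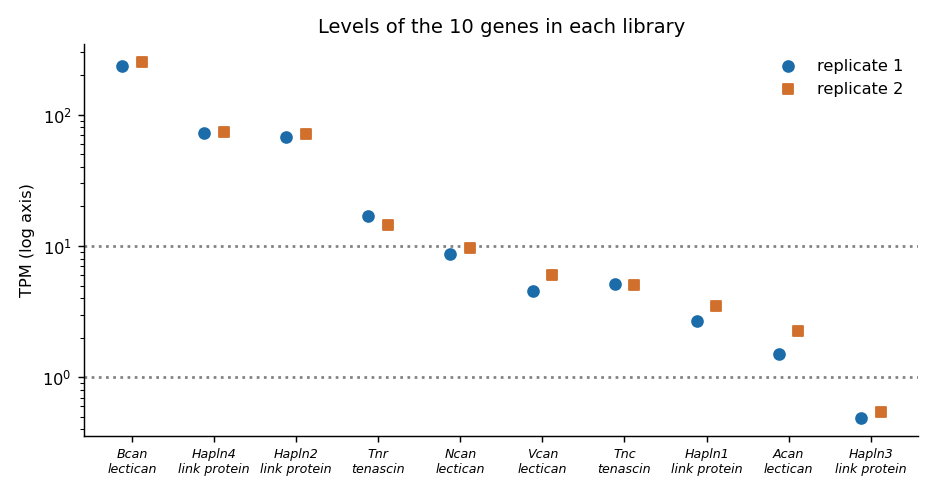
TPM (log axis) of each of the 10 genes in replicate 1 (circles) and replicate 2 (squares), ordered by mean level, with dotted lines at 1 and 10 TPM. Bcan stood at 234 and 253 TPM, above all others, and Hapln3 at 0.49 and 0.54 TPM was the lowest in both libraries.

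Brevican dominated the lecticans. Bcan (ENSMUSG00000004892.9, mm10 chromosome 3, positions 87987531 to 88000230, minus strand) encodes brevican, the smallest lectican and a major matrix proteoglycan of adult brain. It had 234 TPM in replicate 1 and 253 TPM in replicate 2, from 24181 and 28327 counts, and ranked 435 among protein-coding genes. It made up 94.1% and 93.4% of the summed TPM of the 4 lecticans. The other lecticans were far below it in both libraries.

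Ncan (ENSMUSG00000002341.8, chromosome 8, 70093085 to 70120873, minus strand) encodes neurocan, a lectican most abundant in the developing brain. It had 8.70 TPM in replicate 1 and 9.64 TPM in replicate 2. Vcan (ENSMUSG00000021614.12, chromosome 13, 89655312 to 89742509, minus strand) encodes versican, made in several spliced forms, and had 4.53 TPM in replicate 1 and 6.03 TPM in replicate 2. Acan (ENSMUSG00000030607.6, chromosome 7, 79053483 to 79115099, plus strand) encodes aggrecan, the lectican most used to mark perineuronal nets. It had the lowest level of the 4, at 1.51 TPM in replicate 1 and 2.24 TPM in replicate 2, and lay at percentile 42.3 of protein-coding genes. Its coding sequence of 2132 codons is longer than Bcan's 883, and TPM allows for that length.

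Among link proteins, 2 genes held nearly all of the message. Hapln4 (ENSMUSG00000007594.9, chromosome 8, 70083457 to 70090862, plus strand) encodes the brain link protein Bral2, which in the cerebellum is known from the nets and synapses of the deep nuclei. It had 73.2 TPM in replicate 1 and 73.8 TPM in replicate 2, or 50.7% and 49.7% of link protein TPM. Hapln2 (ENSMUSG00000004894.6, chromosome 3, 88021750 to 88027583, minus strand) encodes Bral1, a link protein of nodes of Ranvier, and had 67.98 TPM in replicate 1 and 70.75 TPM in replicate 2. The difference between Hapln4 and Hapln2 was small beside what changed with the transcripts counted. Transcripts with an annotated coding sequence held 30.3% of Hapln2 TPM in each library and all of Hapln4 TPM. Over these alone the share of Hapln4 was 75.5% and 74.3%. They include targets of nonsense-mediated decay, among them a Hapln2 transcript with 8.75% and 6.97% of Hapln2 TPM.

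The remaining link proteins were scarce. Hapln1 (ENSMUSG00000021613.8, chromosome 13, 89539796 to 89611652, plus strand), the cartilage link protein gene that net-bearing neurons also express, had 2.68 TPM in replicate 1 and 3.49 TPM in replicate 2. Hapln3 (ENSMUSG00000030606.7, chromosome 7, 79115102 to 79131018, minus strand), best known outside the brain, had 0.49 TPM from 32 counts in replicate 1 and 0.54 TPM from 37 counts in replicate 2. The single Hapln3 transcript quantified is annotated as a target of nonsense-mediated decay.

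Of the tenascins, Tnr was the more abundant. Tnr (ENSMUSG00000015829.9, chromosome 1, 159523769 to 159931729, plus strand) encodes tenascin-R, the trimeric protein that cross-links lecticans. It had 16.9 TPM in replicate 1 and 14.4 TPM in replicate 2, and its main transcript Tnr-202 took 88.0% and 88.5% of that. A short transcript with a retained intron, Tnr-205, took 8.10% and 6.19% from 33.5 and 22.9 counts. Tnc (ENSMUSG00000028364.11, chromosome 4, 63959785 to 64047015, minus strand) encodes tenascin-C, known from developing and injured brain and from Bergmann glia. It had 5.16 TPM in replicate 1 and 5.08 TPM in replicate 2. The share of Tnr in the sum of both was 76.6% and 73.9%. In the mm9 RPKM values it was 63.3% and 59.4%.

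Brevican is made as a secreted core protein and, from messages that end early, as a shorter form held in the membrane by a glycosylphosphatidylinositol anchor, described in rat brain. Bcan-201, the 14-exon transcript of the secreted form, encodes 883 codons. Bcan-203 lacks exon 1, shares exons 2 to 7, reads through exon 8 into intron 8 and ends 541 bases later. The annotation classes it as a retained intron with no coding sequence, yet the reading frame of Bcan-201 runs on in it to a stop after 645 codons. The divergence of both ends is shown by 40 bases of GENCODE M21 transcript sequence (mm10, chromosome 3, minus strand), 5′ to 3′. Lower case is the end of exon 8 (87993055 to 87993642) and capitals are the bases that follow it.
Bcan exon 8 to exon 9: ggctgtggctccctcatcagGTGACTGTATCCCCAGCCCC
Bcan exon 8 read through into intron 8: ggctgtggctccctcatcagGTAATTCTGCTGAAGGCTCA

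The short end was estimated at a large minority of the TPM of both ends. Bcan-201 had 97.0 TPM in replicate 1 and 116 TPM in replicate 2, and Bcan-203 had 63.5 and 60.5 TPM. With Bcan-206, a partial transcript of the same early end at 3.42 and 2.16 TPM, the short end made up 40.8% of the TPM of both ends in replicate 1 and 35.0% in replicate 2. Between these ends, the secreted form was higher in replicate 2 and the short forms were lower there. The other quantified Bcan transcripts were fragments. Of these, Bcan-202 and Bcan-204 are annotated as retained introns, as are Bcan-203 and Bcan-206. Bcan-202, of 550 bases, took 21.5% and 20.8% of Bcan TPM from 943 and 1030 counts, and Bcan-204, of 568 bases, took 8.30% and 8.52%. Bcan-205 stayed at 0.39 and 0.12 TPM. Transcripts with an annotated coding sequence thus held 41.6% and 46.0% of Bcan TPM but 62.5% and 67.6% of its counts.

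Junction reads, counted on mm9 with replicates numbered but not tied to a library by name, gave a second view. Reads joining exon 7 to exon 8 numbered 1095 in replicate 1 and 1218 in replicate 2, and those joining exon 8 to exon 9 numbered 514 and 638. That was the fewest of the 13 annotated Bcan junctions in each replicate. If every missing read at exon 9 belonged to the early end, its share would be 53.1% and 47.6%. The junctions beyond exon 9 did not stay low, however. Their mean of 1040 and 1435 reads, against 1266 and 1478 reads over the junctions from exon 2 to exon 8, would put the share at 17.9% and 2.86%. That estimate takes reads as even along the message. In the other members they were not: later junctions had 1.37 (Hapln4) to 3.35 (Vcan) times the median of earlier ones, over junctions with reads. The size of the short share was therefore not fixed by these data. On mm9 a stretch of continuous coverage of 8968 bases, at 23.6, ran over exons 6 to 14 with the introns between them. The part of intron coverage in the short estimates was not tested.

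**Figure D2:**
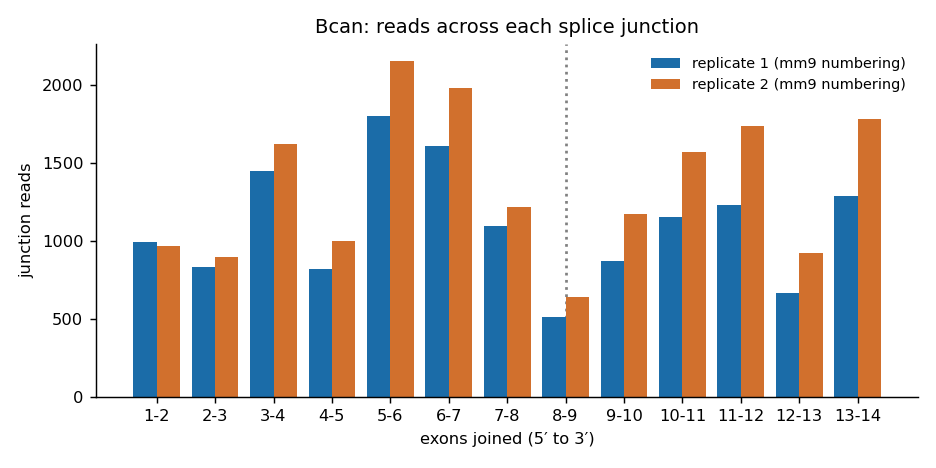
Reads across each of the 13 annotated Bcan splice junctions, in 5′ to 3′ order, in mm9 replicate 1 (left bars) and replicate 2 (right bars), with a dotted line at exon 8 to exon 9. That junction had 514 and 638 reads, fewer than either neighbour, and the last junction had 1287 and 1781 reads.

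Versican forms differ by 2 large exons that carry the chondroitin sulfate attachment sites. The alpha exon, exon 7, has 2880 bases and the beta exon, exon 8, has 5217 bases. V0 holds both, V1 only beta, V2 only alpha and V3 neither, and V2 is the form best known from adult brain and myelinated fibres. Each form has a junction of its own, shown here because the count at that junction separates the forms. The 40 bases come from GENCODE M21 transcripts (mm10, chromosome 13, minus strand), with the end of the first exon in lower case and the start of the next in capitals. Exons 6, 7, 8 and 9 lie at 89712205 to 89712498, 89702918 to 89705797, 89688285 to 89693501 and 89685079 to 89685192.
Vcan exon 7 to exon 9: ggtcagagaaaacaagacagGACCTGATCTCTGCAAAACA
Vcan exon 7 to exon 8: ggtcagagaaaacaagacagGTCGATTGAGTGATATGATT
Vcan exon 6 to exon 8: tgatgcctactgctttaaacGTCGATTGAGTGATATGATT
Vcan exon 6 to exon 9: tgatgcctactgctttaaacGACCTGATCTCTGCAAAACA
Vcan exon 8 to exon 9: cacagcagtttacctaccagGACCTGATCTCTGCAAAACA

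The transcript estimates and the junction reads pointed to different forms. In the mm10 estimates V0 (Vcan-203) was highest, at 2.53 TPM in replicate 1 and 2.55 TPM in replicate 2, or 65.4% and 71.4% of the 4 forms. V3 (Vcan-201) took 17.8% and 15.7%, V2 (Vcan-202) 16.02% and 12.60%, and V1 (Vcan-206) 0.78% and 0.28%. Yet no read joined exon 7 to exon 8, the junction of V0, and none joined exon 6 to exon 9, the junction of V3. A count of 0 allows up to 3 reads.

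V2 was the form whose own junction was read. Reads joining exon 7 to exon 9 numbered 17 in replicate 1 and 16 in replicate 2, and exon 6 to exon 7 had 9 and 13. The V1 junction, exon 6 to exon 8, had 2 reads and 0. Of the reads leaving exon 6 or 7 for exon 8 or 9, V2 therefore held 33 of 35 (94.3%, exact 95% interval 80.8 to 99.3). The far end of the beta exon told otherwise: exon 8 to exon 9 had 17 reads in each replicate, so that V2 held 33 of 67 reads into exon 9 over annotated junctions (49.3%, 36.8 to 61.8). Thus 34 reads left the beta exon by its annotated junction and 2 entered it by one. Unannotated junctions added 6 and 3 reads that left it at its end, 2 that left it from a site inside it and 1 that entered it. The beta exon lay in a contig, a stretch of continuous coverage, with coverage of 0.554, which ran 2566 bases upstream of the exon into the intron and 1210 bases downstream. The alpha exon's contig had 0.682 and ran 1409 bases upstream and 850 bases downstream. The part of intron coverage in the transcript estimates was not tested.

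Short Vcan transcripts also set the gene's TPM. Vcan-204, a fragment of 294 bases, had 0 counts in replicate 1 and 11 in replicate 2, which came to 2.07 TPM or 34.4% of Vcan there. Gene counts were 1942 and 1998. Vcan-208 took 9.65% and 2.71% of TPM, Vcan-207 3.86% and 3.72%, Vcan-209 1.10% and 0, and Vcan-205 was listed at 0 in both. The higher Vcan TPM in replicate 2 was thus not seen in its counts.

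**Figure D3:**
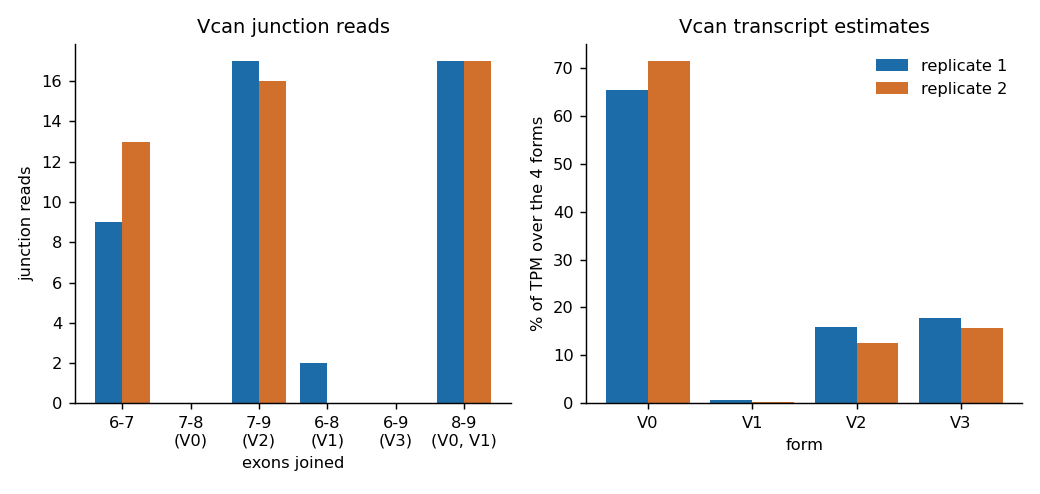
Left, reads across the Vcan junctions that separate the forms, in mm9 replicate 1 (left bars) and replicate 2 (right bars); right, percent of the TPM of the 4 forms in the mm10 estimates. Exon 7 to exon 8, the V0 junction, had 0 reads, while V0 took 65.4% and 71.4% of the estimated TPM.

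Tenascin-C messages mostly lacked the alternatively spliced fibronectin repeats. Between exon 9 and exon 16 of the longest transcript lie 6 exons of 273 bases, each encoding 1 fibronectin type III repeat, whose inclusion makes the large forms of the protein. The most read junction there was the one that skips all of them, with 73 reads in replicate 1 and 67 in replicate 2. It is printed from GENCODE M21 exons (mm10, chromosome 4, minus strand) because no annotated Tnc transcript there holds it. Lower case is the end of exon 9 (64006246 to 64006509) and capitals the start of exon 16 (63976446 to 63976568), matched to the mm9 exons by order.
Tnc exon 9 to exon 16: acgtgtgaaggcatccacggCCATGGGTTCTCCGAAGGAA

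Skipping accounted for 140 of 150 reads leaving exon 9 (93.3%, exact 95% interval 88.1 to 96.8). The other 10 reads, 8 in replicate 1 and 2 in replicate 2, joined exon 9 to exon 15, the last repeat. Into exon 16, 140 of 145 reads came from exon 9 (96.6%, 92.1 to 98.9) and 5 from exon 15. No read entered exons 10 to 14 from exon 9. Flanking junctions were well read, with 144 reads from exon 8 to exon 9 and 120 from exon 16 to exon 17. All 3 long transcripts of the mm10 estimate nonetheless hold the repeats: Tnc-201, with 5 of them, took 71.4% and 76.6% of Tnc TPM, Tnc-204, also with 5, took 27.2% and 19.1%, and Tnc-203, with 6, took 0 and 3.65%. The 5 repeats are 19.98% of the length of Tnc-201, and TPM divides by that length. In the mm9 quantification a transcript without the repeats, whose exon 16 starts 3 bases earlier, took 94.8% and 93.8% of Tnc RPKM, while no read spanned its exact junction.

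Much of the Hapln2 message was assigned to transcripts that keep an intron. A transcript of 2338 bases, annotated as a retained intron with no coding sequence, took 48.5% of Hapln2 TPM in replicate 1 and 54.5% in replicate 2. The coding transcript of 1711 bases took 21.5% and 23.4%. A retained-intron fragment of 521 bases took 21.3% and 15.2%, and a target of nonsense-mediated decay of 658 bases took 8.75% and 6.97%. The most abundant transcript reads through intron 3, of 211 bases. The contrast is shown by 40 bases (GENCODE M21, mm10, chromosome 3, minus strand), with the end of exon 3 (88024330 to 88024471) in lower case and the bases that follow it in capitals.
Hapln2 exon 3 to exon 4: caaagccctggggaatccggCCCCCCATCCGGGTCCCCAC
Hapln2 exon 3 read through into intron 3: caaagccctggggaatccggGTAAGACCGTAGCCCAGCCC

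Junction reads dipped at the same intron. Exon 3 to exon 4 had 72 reads in replicate 1 and 108 in replicate 2, and an annotated second acceptor in exon 4 added 25 and 19. The neighbouring junctions had 616 and 657 reads (exon 2 to exon 3) and 634 and 719 reads (exon 4 to exon 5). Both acceptors together thus reached 15.5% and 18.5% of the mean of those neighbours.

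**Figure D4:**
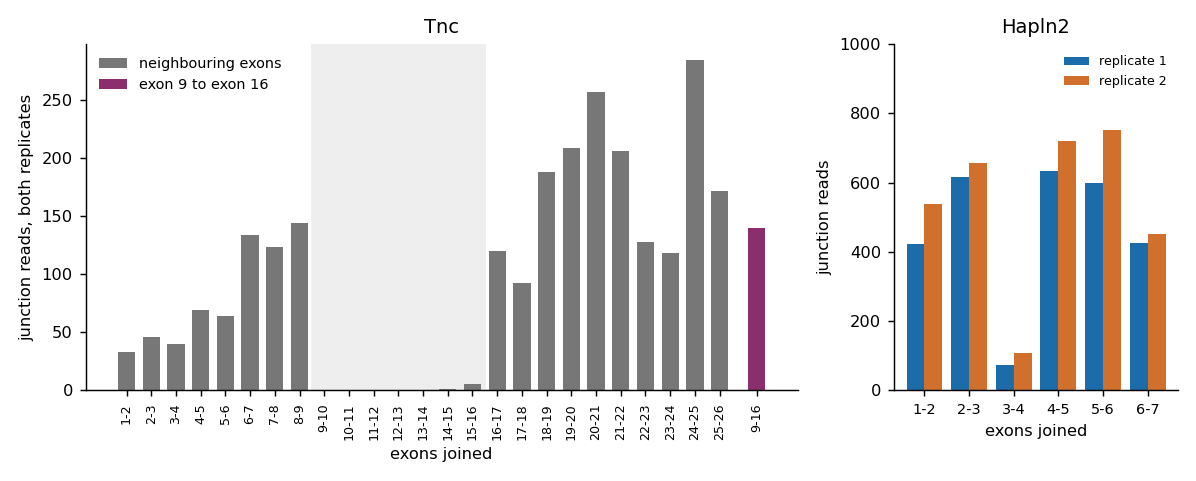
Left, reads of both mm9 replicates across Tnc junctions in exon order, with the shaded block of alternative repeats and, at the far right, the junction from exon 9 to exon 16 (140 reads); right, Hapln2 junction reads in replicate 1 (left bars) and replicate 2 (right bars). Reads nearly vanished inside the Tnc block, and Hapln2 exon 3 to exon 4 had 72 and 108 reads.

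Junction reads were also counted for the other members. Acan was read at all 16 of its annotated mm9 junctions, with 14 to 120 reads each, and Ncan at all 14, with 60 to 454. In Acan the reads stepped up from 26 at exon 12 to exon 13 to 109 at exon 13 to exon 14. They stayed at 82 or more beyond it, while no junction before had more than 46. The cause of this step was not tested. Hapln4 had 719 to 1271 reads at its 4 junctions, and Hapln3 had 3 to 14. Tnr was read at 21 of 22 annotated junctions. Hapln1 was read at 3 of 4: exon 1 to exon 2 had 0 reads, which allows up to 3, while the next junctions had 49, 68 and 75. Acan, Hapln1, Hapln4 and Ncan each had 1 quantified mm10 transcript, which took all of the gene's TPM.

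Lectican and link protein genes lie in pairs in the genome, with no annotated gene between the partners. Bcan and Hapln2 on chromosome 3 run in the same direction 21519 bases apart. The others converge: Ncan and Hapln4 on chromosome 8 with 2222 bases between their ends, Vcan and Hapln1 on chromosome 13 with 43659, and Acan and Hapln3 on chromosome 7 with 2. The partners did not share a level. The lectican-to-link ratio of TPM was 3.44 in replicate 1 and 3.58 in replicate 2 for Bcan to Hapln2, 1.69 and 1.73 for Vcan to Hapln1, and 3.08 and 4.15 for Acan to Hapln3. The Vcan level in replicate 2 includes 2.07 TPM of the fragment Vcan-204 from 11 counts, so the likeness of its 2 ratios rests on that fragment. For Ncan to Hapln4 it was 0.12 and 0.13, the one pair in which the link protein was higher.

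Between the libraries, 9 of the 10 genes were lower in replicate 1, or 7 when the libraries were scaled to the spike-in RNAs and 8 on the TPM scale. After TMM scaling of the counts, the median log2 ratio of replicate 1 over replicate 2 was -0.20 for the 10 genes. Over 15543 genes with at least 100 counts the median was -0.00 and the median size was 0.095. The median over those genes was 0.055 with spike-in scaling and 0.058 on TPM with a pseudocount of 1. The share of all genes lower in replicate 1 was not counted on any scale. At least 0.32 apart on the log2 scale were 2 of 10, Acan and Hapln1, both lower in replicate 1, against a background of 10.6% of genes in either direction and 5.66% in that direction. At least 2-fold apart were 0 of 10, against 0.637% of genes. With 1 library on each side no test was possible.

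Acan had 7.18 CPM, counts scaled by library size, in replicate 1 and 11.2 in replicate 2, a log2 ratio of -0.64 with a 95% counting interval of -0.79 to -0.48. In the mm9 junction reads the replicates did not differ evenly along Acan. Exon 12 to exon 13 had 15 reads in replicate 1 and 11 in replicate 2. The junctions beyond it had 29 and 80, 28 and 66, 38 and 82, and 27 and 55. Exon 1 to exon 2 had 6 and 17, and exon 2 to exon 3 had 6 and 15. The junctions between exon 3 and exon 12 were closer to equal. Hapln1 had 8.63 and 11.8 CPM, a log2 ratio of -0.45 (-0.60 to -0.31). Hapln2 at -0.24, Bcan at -0.22 and Ncan at -0.22 lay together, and Hapln3 at -0.19 had an interval of -0.93 to 0.52. Hapln4 at -0.08, Tnc at -0.05 and Vcan at -0.03 were close to equal, and the last 2 lay slightly above 0 with spike-in scaling, as Tnc did on the TPM scale. Tnr alone was higher in replicate 1, at 0.15 (0.11 to 0.20).

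Cell type markers also differed between the libraries. After TMM scaling, 5 of 6 Golgi and nuclear neuron markers were lower in replicate 1. Their summed levels were 292 TPM in replicate 1 and 369 TPM in replicate 2. On the TPM scale Grm2 (15.28 and 12.67) and Lgi2 (16.27 and 16.20) were higher in replicate 1. All 6 oligodendrocyte markers were lower in replicate 1 too, at 6196 TPM in replicate 1 and 7320 TPM in replicate 2. After TMM scaling so were 5 of 6 oligodendrocyte precursor markers, whose sums were 210.2 and 239.6 TPM. On the TPM scale C1ql1 (12.61 and 10.60) and Pdgfra (5.45 and 5.23) were higher in replicate 1. The 8 granule neuron markers were all higher in replicate 1, at 3060 and 2490 TPM, as were all 7 choroid plexus markers, at 2426 and 967 TPM. The red cell markers summed to 746 and 1635 TPM. After TMM scaling, all 6 mural markers were lower in replicate 1. All 6 Purkinje neuron and all 6 meningeal fibroblast markers were higher there. Every gene of these marker lists was detected in both libraries. Their part in the differences between libraries, and that of the sex-linked difference, was not tested.

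**Figure D5:**
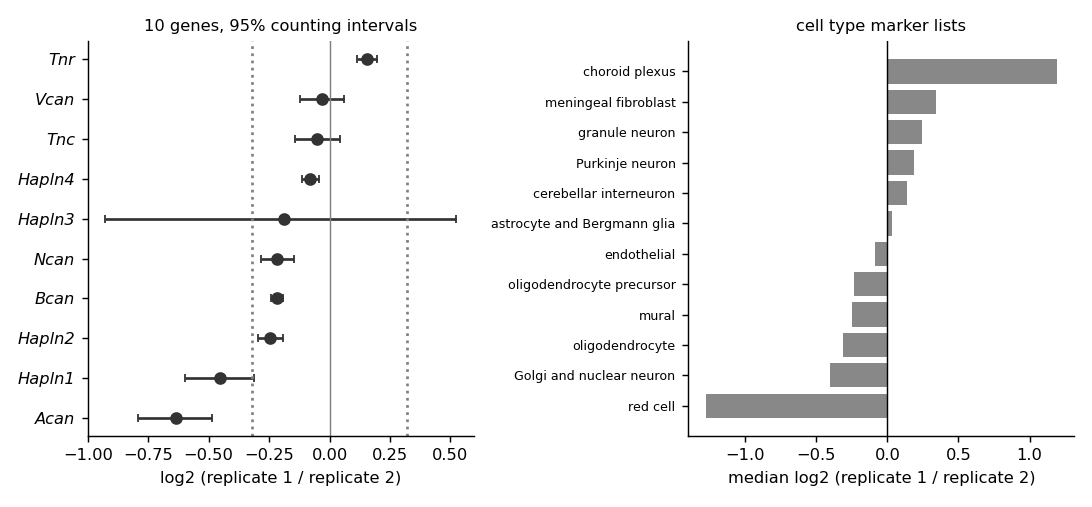
Left, log2 ratio of replicate 1 over replicate 2 of each gene after TMM scaling, with 95% counting intervals and dotted lines at 0.32 to either side of 0; right, median log2 ratio of each cell type marker list. Among the genes, Acan (-0.64) and Hapln1 (-0.45) lay farthest from 0. Among the lists, red cell (-1.28) and choroid plexus (1.19) did, and the Golgi and nuclear neuron list had a median of -0.40.

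Genes of the wider matrix pathway are set against the same shares of all protein-coding genes, 60.9% at 1 TPM and 40.0% at 10 TPM in both libraries. Of 20 genes that build and sulfate chondroitin chains, 18 reached 1 TPM, and 8 reached 10 TPM, which is no more than the share of all genes. The highest were B3gat3, which completes the linker sugar on the core protein, at 135 ± 3.45 TPM, the polymerising factor gene Chpf at 58.3 ± 0.54 TPM and the uronyl sulfotransferase gene Ust at 22.3 ± 2.52 TPM. Chst13 was the lowest, at 0.015 ± 0.0071 TPM. Hyaluronan genes were low: 4 of 9 matched reached 1 TPM and 0 reached 10 TPM. The hyaluronidase genes Hyal2 and Hyal1 led at 7.32 ± 0.31 and 4.03 ± 0.61 TPM, followed by the hyaluronan receptor gene Cd44 at 2.75 ± 0.11 TPM, and Hmmr was lowest at 0.065 ± 0.021 TPM. Of the hyaluronan synthases, Has3 had 1.05 ± 0.071 TPM, Has1 0.54 ± 0.064 TPM and Has2 0.075 ± 0.021 TPM.

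Among proteases and their inhibitors 11 of 15 reached 1 TPM and 4 reached 10 TPM. The inhibitor genes Timp4, Timp2 and Timp3 led at 154 ± 14.7, 82.6 ± 5.69 and 31.1 ± 0.20 TPM. Adamts4, a protease that cleaves brevican and aggrecan, had 18.0 ± 1.24 TPM, and Mmp3 was lowest at 0.010 ± 0.014 TPM. Of 10 proteoglycan receptor genes, 8 reached 1 TPM and 7 reached 10 TPM. Lrp1 had 229.5 ± 3.34 TPM, and the receptor phosphatases Ptprs and Ptprd, of which Ptprs binds chondroitin sulfate, had 132.7 ± 1.68 and 64.7 ± 0.95 TPM. Itga8 was lowest at 0.54 ± 0.071 TPM.

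Other proteoglycans and tenascins reached 1 TPM in 8 of 10 cases. Agrn, encoding agrin, stood at 70.8 ± 1.03 TPM, Ptprz1, encoding phosphacan, at 51.2 ± 6.78 TPM and Cspg5, encoding neuroglycan C, at 38.4 ± 0.11 TPM. Tnn was lowest at 0.28 ± 0.049 TPM. All 8 genes listed for proteins associated with nets or their sugars reached 1 TPM. Nptx1, a neuronal pentraxin, had 145 ± 25.9 TPM, the granule neuron glycoprotein gene Reln 115.9 ± 10.996 TPM and the growth factor gene Ptn 79.2 ± 2.32 TPM, and Nptx2 was lowest at 3.31 ± 0.18 TPM. Bcan alone, at 244 TPM, lay above every gene of these pathway lists in both libraries. In replicate 1 the margin was small, with Bcan at 234 TPM and Lrp1 at 227 TPM. The Bcan transcripts with an annotated coding sequence had 97.4 and 116 TPM, below the gene total of Lrp1.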

How the data were processed

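Per the accompanying index, the authors quantified each library on mm10 with GENCODE M4 from transcriptome alignments. Deposited gene and transcript tables hold an expected count, TPM and posterior mean TPM, and for transcripts the percent of the gene's TPM. The program is not given in the sources used here. On mm9 the authors deposited RPKM per Ensembl 65 gene, transcript and exon, junction read counts and contig coverage, a signal over both replicates. Every one of 164 exon RPKM values of the 10 genes equalled the sum over its transcripts within 0.0001 RPKM, so exons gave no separate measure.

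Names, coordinates and sequences came from GENCODE M21, and mm9 and mm10 were joined by gene identifier only. Of 33 member transcripts, 30 had the same length there as in M4. Expected counts were rounded and scaled with TMM in edgeR 4.0.16 (R 4.3.3) (prior count 2, minimum of 10 counts over both libraries), or with DESeq2 1.42.0 size factors. Of the code, only that for the log2 ratio between libraries was tested on simulated counts. Binomial intervals are exact, at 95%, and cover counting error only. The short Bcan share was taken over the transcripts of both ends, since the short transcripts have no annotated coding sequence. Named genes are the 10 members, their Bcan and Vcan transcripts, others with at least 5% of TPM in both libraries, and the 3 highest and the lowest of each list. Has1, Has2, Has3, Adamts4, the markers Grm2, Lgi2, C1ql1 and Pdgfra, and transcripts below 5% were added after their values were seen. Members and lists were chosen with earlier results of these data known.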

Additional observations from a re-analysis of the deposited data

Results flagged for a closer look

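The values here come from junctions that Ensembl 65 does not hold and from contigs of the opposite strand. Those of Tnc and the reads leaving Vcan exon 8 are also among the results above. For each gene the most read unannotated junction is given where both mm9 replicates had more than 3 reads. In Tnc it was the junction from exon 9 to exon 16, with 140 reads, where the median annotated junction between neighbouring exons had 92. In Bcan, 104 reads (53 in replicate 1 and 51 in replicate 2) entered exon 2 from an unannotated donor 2191 bases upstream, while the annotated junction from exon 1 had 1959. In Hapln2, 81 reads (29 and 52) entered exon 2 from an unannotated site 254 bases upstream. In Hapln4, 21 reads (8 and 13) joined exon 1 to exon 3, and in Tnr 20 reads (11 and 9) entered exon 2 across 112172 bases.

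In Vcan, 18 reads (8 and 10) entered exon 9 from an unannotated site inside the intron between exons 8 and 9, and 6 reads joined exon 8 to another site in that intron. Bcan also had 50 reads (11 and 39) from exon 11 to exon 13, or 1.66% of the reads leaving exon 11 for exon 12 or 13. Within Hapln1, a contig on the strand opposite to the gene had a coverage of 6.56 over 1846 bases (mm9 chromosome 13, 89716443 to 89718288), where the highest contig on the gene's own strand had 2.04. In mm10 the processed pseudogene Gm8546 lies inside Hapln1, at 1.00 TPM in replicate 1 and 1.06 TPM in replicate 2. Whether the contig is that pseudogene was not tested.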

How the results depend on the processing

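No paired analysis was possible because both libraries belong to 1 group. The share of Bcan in lectican TPM was 93.7%, against 91.8% from counts per longest transcript and 89.3% from mm9 RPKM. Over transcripts with an annotated coding sequence, decay targets included, the share was 86.9%. For Hapln4 among link proteins it was 50.2%, against 58.7%, 57.6% and 74.9% under these alternatives. The share of Tnr was 75.2%, against 61.4% from mm9 RPKM. The short Bcan share was 37.9%, against 50.3% from the exon 8 to exon 9 junction, 31.3% from expected counts and 10.4% from mean junction reads. Vcan V2 was 14.3%, against 49.2% from reads into exon 9, 94.7% from reads leaving exons 6 and 7, and 1.71% from mm9 exon RPKM. The median log2 ratio was -0.085 on TPM with a pseudocount of 1, where the median of all genes moved to 0.058. Of 28 alternatives that kept both libraries, the other 14 moved by less than the spread between replicates, or for counts by at most 1.5-fold. With 2 libraries, leaving out either cannot move a share beyond their SD, so this says nothing about stability. Without either replicate the shares ran from 93.4 to 94.1% for Bcan, 49.7 to 50.7% for Hapln4, 73.9 to 76.6% for Tnr, 35.0 to 40.8% for the short Bcan end and 12.60 to 16.02% for V2, and 4 genes reached 10 TPM. The coding-only, expected count, mean junction and exon 6 and 7 alternatives were chosen after seeing the data. The planned mm9 exon estimate for Bcan could not be made, since Ensembl 65 holds 1 Bcan transcript. The causes were not tested. Depth limits Hapln3, with 69 counts in all, and the Vcan junctions.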

Other observations

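Junction reads were not even along these genes. In 9 of the 10, the median over the junctions nearer the 3′ end was above that over the junctions nearer the 5′ end. The ratio was 3.72 for Vcan, 3.49 for Tnc, 2.92 for Hapln1, 2.25 for Acan, 2.13 for Hapln3, 1.89 for Tnr, 1.61 for Ncan, 1.41 for Hapln2 and 1.37 for Hapln4. For Bcan it was 0.95. Some of the junctions had no reads, 5 of 25 in Tnc, 1 of 14 in Vcan and 1 of 4 in Hapln1. Over junctions with reads the ratio was 3.27 for Tnc, 3.35 for Vcan and 1.53 for Hapln1.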
